A study of Danio rerio with 12 samples.

Results

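The comparison described here asks where loss of the transcription factor gene cebpd and loss of CEN changed kidney transcripts differently. For each gene it sets the cebpd effect, cebpd knockout (cebpd KO) minus cebpd wild type (cebpd WT), against the CEN effect, CEN knockout (CEN KO) minus CEN wild type (CEN WT). All 12 of the 12 libraries were used, 3 in each of the 4 groups, and 11840 of the 14781 genes counted had enough reads to be tested. A difference of effects is written on the log2 scale as the cebpd effect minus the CEN effect, so a negative value means that the transcript was lower, relative to its own wild types, in cebpd KO than in CEN KO.

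The libraries hold RNA of whole kidneys from adult male zebrafish of the EK strain, 4 to 12 months old. The labels give cebpd KO as homozygous for a cebpd knockout and CEN KO as homozygous for a CEN knockout, and each has its own group of wild types. All 4 groups had cardiomyocytes ablated by 0.5 to 0.7 µM tamoxifen for 17 h and were sampled 7 days later, so no uninjured kidney stands beside them. The labels name neither the transgene behind the ablation nor the lesion in either line, and they do not say whether a library is 1 fish or a pool, so the p-values given here cover only the spread from library to library, which may be technical.

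Cebpd belongs to the C/EBP family of bZIP factors, which act in acute-phase, stress and myeloid programmes. In published work on this system CEN is an enhancer linked to cebpd. The zebrafish kidney combines nephrons, which reabsorb ions, amino acids and phosphate, with blood-forming marrow and with interrenal tissue, the fish counterpart of the adrenal cortex.

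The libraries held 15793475 to 18104535 counts in genes, and 3 counts corresponded to 0.166 to 0.19 CPM, counts scaled to library size, a floor that covers counting error only. Markers of the labelled tissue were present in all 12 libraries: slc20a1a, a proximal tubule phosphate transporter, at 1131 to 2667 CPM, slc12a3 of the distal tubule at 440.1 to 1287 CPM, nphs1 of podocytes at 15.8 to 32.1 CPM, mpx of neutrophils at 281 to 738 CPM and star of interrenal tissue at 207 to 849.9 CPM. Some libraries stood apart. CEN KO 2 had 5341 CPM of the egg-yolk precursor vtg1, CEN KO 1 had 184 CPM of the egg-coat gene zp2.1 with 7.73 CPM in cebpd KO 1, CEN KO 3 had the most transcript of the muscle gene ckma at 77.4 CPM, and cebpd KO 3 had the lowest scaling factor at 0.835. Values with single libraries left out are given for the called genes, the class sizes and most gene lists. Most other genes are given with all 12 libraries only.

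A difference between the knockout effects passed the threshold, an adjusted p of 0.05 in edgeR's quasi-likelihood test, in 5 genes, or 0.0422% of the genes tested. Of these, rbbp8 was higher in the difference (0.00845%), and 4, akap2, desi1a, cebpd and ggt1a, were lower (0.0338%). The genes akap2, desi1a and ggt1a were lower in cebpd KO than in cebpd WT and higher in CEN KO than in CEN WT, cebpd was lower in both knockouts and by more in its own, and rbbp8 was nearly absent from CEN KO alone. At an adjusted p of 0.1 the number was 8 (0.0676%), with dnaja1, hsp90aa1.2 and sox4b added. At an unadjusted p of 0.05 it was 1530 genes (12.9%), 674 higher (5.69%) and 856 lower (7.23%).

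The targeted gene was read first. In cebpd KO libraries cebpd had 10.4, 4.03 and 12.9 CPM, against 316, 466 and 337 CPM in cebpd WT. In CEN KO libraries it had 67.8, 72.8 and 77.9 CPM, against 294, 333 and 212 CPM in CEN WT. In both experiments every knockout library lay below every wild-type library, and the 3 cebpd KO libraries lay below all others. The cebpd effect was a 41.2-fold lower level and the CEN effect a 3.84-fold lower one. Only the cebpd effect passed the threshold on its own (adjusted p 9.43e-05, against 0.106 for the CEN effect, edgeR). Their log2 difference of -3.42 ± 0.46 (SE) had an adjusted p of 0.0244 in edgeR. The contrast came from the knockouts: cebpd KO minus CEN KO was -3.01, whereas cebpd WT minus CEN WT was 0.42.

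The difference of effects had the other sign for rbbp8, which encodes the CtIP protein that trims broken DNA ends before repair. In cebpd KO libraries it had 6.18, 3.87 and 4.71 CPM, against 7.53, 5.51 and 8.83 CPM in cebpd WT. In CEN KO libraries it had 0.388, 0.0579 and 0.0606 CPM, against 6.15, 7.69 and 4.81 CPM in CEN WT. The cebpd groups overlapped, while all 3 CEN KO libraries lay below the other 9 libraries. The CEN KO values rest on 7, 1 and 1 reads, 9 in all, against 344 in CEN WT, a 36.0-fold lower level with a 95% exact binomial interval of 18.7 to 79.4 that covers counting error only. The log2 difference of effects was 4.54 ± 0.63 (SE), with an adjusted p of 0.0244 in edgeR.

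In the RefSeq gene order of the assembly GRCz12tu, rbbp8 and cebpd lie on the same chromosome with 14 genes between them, of which 5 were tested here. None of the 5 passed the adjusted threshold in the difference of effects. The largest values among them were 0.92 for mapre2, a microtubule end-binding protein, and 0.67 for abcd4, a lysosomal transporter, with unadjusted p-values of 0.000395 and 0.00879 in edgeR. In mapre2 the cebpd KO mean was 58.2 ± 5.78 CPM and the cebpd WT mean 37.2 ± 3.02 CPM (SD, n = 3 each), while CEN KO averaged 39.7 ± 4.07 CPM and CEN WT 48.0 ± 5.41 CPM. In abcd4 the CEN side carried the difference, with 8.7 ± 0.294 CPM in CEN KO and 13.7 ± 1.27 CPM in CEN WT (SD, n = 3 each), against 9.75 CPM in cebpd KO and 9.71 CPM in cebpd WT. The group that stood apart in abcd4 was CEN WT, above all other libraries. Across the 316 tested genes of that chromosome 17 were higher and 35 lower at an unadjusted p of 0.05, or 16.5% against 12.9% of all genes.

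The gene of lowest p, akap2, encodes an anchor that holds protein kinase A near its targets. It had 19.6, 15.9 and 21.2 CPM in cebpd KO, against 60.7, 58.3 and 41.1 CPM in cebpd WT. In the CEN experiment it had 27.3, 23.9 and 31.2 CPM in CEN KO, against 16.5, 16.9 and 17.9 CPM in CEN WT. Neither pair of groups overlapped, the directions were opposite, and the 3 cebpd WT libraries lay above the other 9. The cebpd effect was -1.50 ± 0.18 and the CEN effect 0.68 ± 0.18 (SE), with a difference of -2.18 ± 0.25 and an adjusted p of 0.017 in edgeR. Only the cebpd effect passed the threshold on its own (adjusted p 0.0124, against 0.229 for the CEN effect). The knockouts differed by -0.54 (adjusted p 0.0562) and the wild types by 1.64 (adjusted p 0.000226).

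Opposite effects were also measured for desi1a, whose product is related to the enzymes that remove the small modifier SUMO from proteins. It had 30.5, 31.1 and 34.9 CPM in cebpd KO, against 53.9, 58.1 and 43.6 CPM in cebpd WT. In CEN KO it had 35.8, 44.9 and 46.5 CPM, against 17.2, 19.4 and 22.6 CPM in CEN WT. The groups did not overlap in either experiment, and here the CEN WT libraries were the ones that lay below all others. The effects were -0.69 ± 0.16 for cebpd and 1.1 ± 0.16 for CEN, neither past the threshold, with a difference of -1.79 ± 0.22 (SE, adjusted p 0.0212, edgeR). Between the knockouts the log2 difference was -0.40 (adjusted p 0.102), and between the wild types 1.39 (adjusted p 0.000315).

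The third called gene with opposite effects was ggt1a, a gamma-glutamyltransferase of the type that splits glutathione at the proximal tubule brush border. It had 392, 315 and 269 CPM in cebpd KO, against 660.4, 721 and 594 CPM in cebpd WT. It had 130, 148 and 198 CPM in CEN KO, against 73.3, 75.6 and 44.4 CPM in CEN WT. The 4 groups did not overlap at all, with cebpd WT highest, cebpd KO and then CEN KO below it, and CEN WT lowest. The effects were -1.02 ± 0.23 and 1.3 ± 0.23, with a difference of -2.32 ± 0.32 (SE, adjusted p 0.0244, edgeR). Neither effect passed the threshold on its own (adjusted p 0.0877 for cebpd and 0.106 for CEN, edgeR). The wild types of the 2 experiments differed by 3.35 (adjusted p 2.53e-05) and the knockouts by 1.04 (adjusted p 0.0119).

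**Figure D1:**
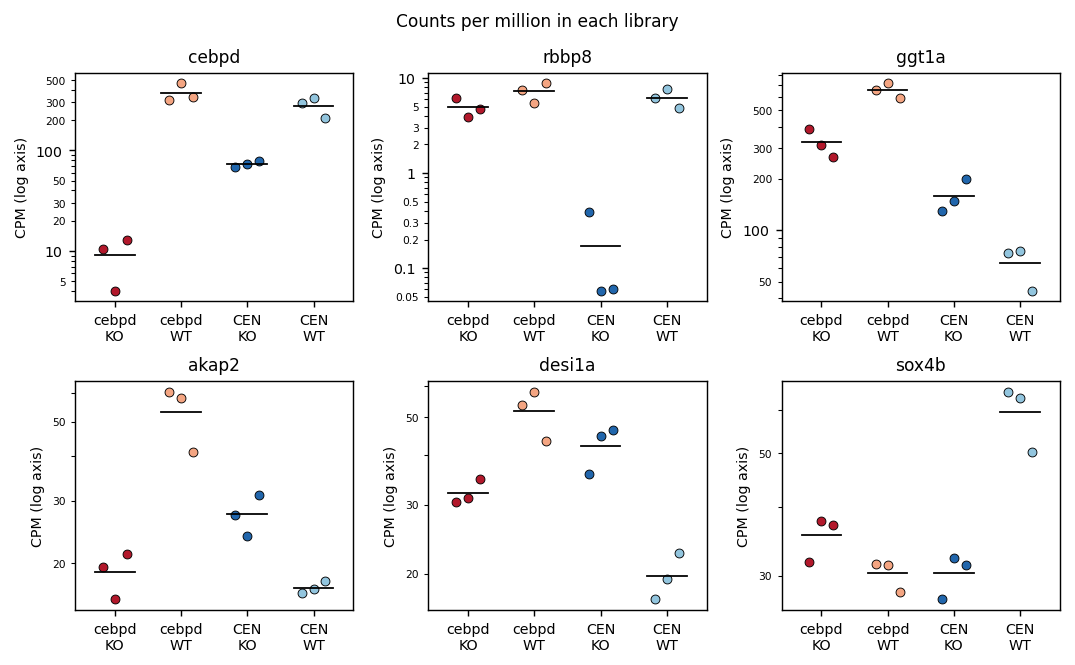
CPM on a log axis of cebpd, rbbp8, ggt1a, akap2, desi1a and sox4b in each of the 12 libraries, by group, with a bar at the group mean. In ggt1a, akap2 and desi1a the cebpd KO points lie below the cebpd WT points while the CEN KO points lie above the CEN WT points; in rbbp8 only the CEN KO points lie apart, at 0.388 CPM or less.

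The calls depended on single libraries. Leaving out 1 library at a time kept the log2 difference of akap2 between -2.34 and -2.07, that of desi1a between -1.90 and -1.70, that of ggt1a between -2.47 and -2.11, that of cebpd between -3.73 and -3.06 and that of rbbp8 between 4.15 and 5.98. The directions held in every one of these fits, but akap2 stayed past the threshold in 7 of the 12, desi1a and cebpd in 5 each, and ggt1a and rbbp8 in 4 each. None of the 5 passed without cebpd KO 1, cebpd WT 2, CEN KO 3, CEN WT 1 or CEN WT 2, with lowest adjusted p-values in edgeR between 0.0686 and 0.107 among those fits. Without cebpd KO 3, the library of lowest scaling factor, all 5 passed among 48 genes, and without CEN KO 2, the library rich in vtg1, all 5 passed among 12.

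**Figure D2:**
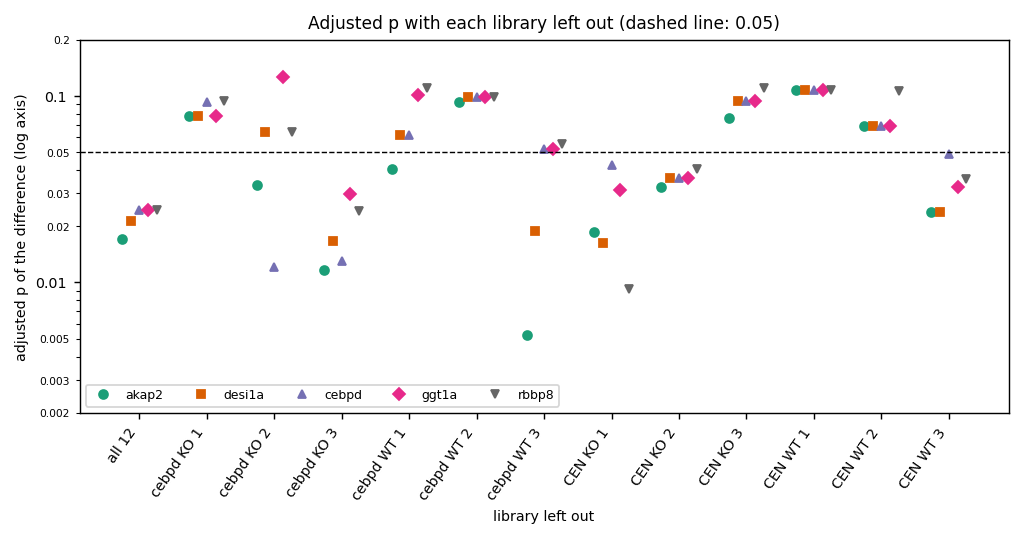
Adjusted p (log axis) of the difference between the knockout effects for akap2, desi1a, cebpd, ggt1a and rbbp8 with all 12 libraries and with each library left out, with a dashed line at 0.05. The values lie above the line for all 5 genes without cebpd KO 1, cebpd WT 2, CEN KO 3, CEN WT 1 or CEN WT 2, and below it for all 5 without cebpd KO 3, CEN KO 1, CEN KO 2 or CEN WT 3.

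Another 3 genes came close. The heat shock genes dnaja1, a co-chaperone of HSP70, and hsp90aa1.2, a cytosolic HSP90, had differences of -1.67 ± 0.25 and -2.76 ± 0.43 (SE), with adjusted p-values of 0.0522 and 0.0612 in edgeR. In hsp90aa1.2 the libraries read 64.7, 104 and 107 CPM in cebpd KO, against 437, 344 and 614 CPM in cebpd WT. They read 115, 91.0 and 161 CPM in CEN KO, against 60.1, 117 and 98.0 CPM in CEN WT. The cebpd WT libraries stood above all others in both genes, and both fell in the cebpd effect (adjusted p 0.0181 each) while the CEN groups overlapped. The transcription factor gene sox4b had the reverse form, with 27.18, 32.2 and 31.4 CPM in CEN KO below 64.7, 63.0 and 50.3 CPM in CEN WT. Its cebpd KO libraries had 31.7, 37.7 and 37.1 CPM, against 31.5, 31.3 and 28.0 CPM in cebpd WT, so that CEN WT alone stood apart, and its difference was 1.2 ± 0.19 (SE, adjusted p 0.0658, edgeR).

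Each knockout by itself gave few calls: 10 genes in the cebpd effect (0.0845%) and 1 in the CEN effect (0.00845%), which was rbbp8. At an unadjusted p of 0.05 there were 1584 (13.4%) and 1168 (9.86%) in the same order. The 2 effects share no library. Over the 11840 genes they had the same sign in 46.7%, and Spearman's rho between them was -0.08; Pearson's r was 0.43. That Pearson value rested on a small number of extreme genes. Over the 11723 genes with both effects within 3 log2 units it was -0.10, and without cebpd KO 1 and CEN KO 1, the libraries with the most egg-coat transcripts, it was -0.05. These are descriptions across genes, which are not independent replicates. Of the 237 genes with an unadjusted p under 0.05 in both effects, 140 had opposite signs and 97 the same sign.

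**Figure D3:**
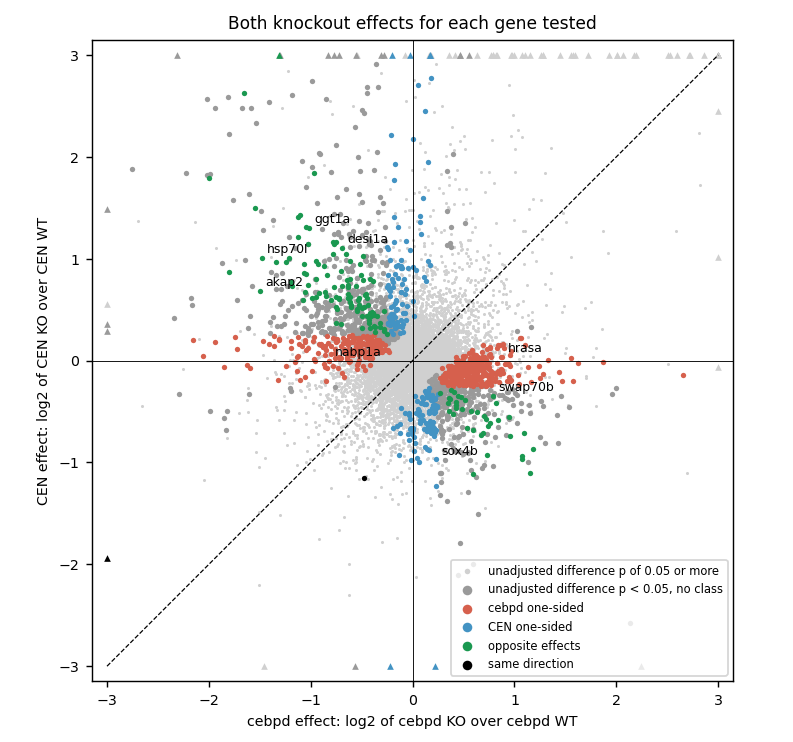
For each of the 11840 genes tested, the log2 cebpd effect (horizontal) against the log2 CEN effect (vertical), each KO over WT. The classes of opposite and one-sided genes are in colour. Named are akap2, desi1a and ggt1a, which passed the threshold, and sox4b, swap70b, hsp70l, hrasa and nabp1a, which did not. The dashed line marks equal effects; 117 genes with an effect beyond 3 log2 units are drawn as triangles at the edge.

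The 1530 genes with an unadjusted p under 0.05 in the difference were sorted by the form of the difference. Opposite genes, 140 in all (1.18% of genes tested), had an unadjusted p under 0.05 in both effects with opposite signs. Genes with a cebpd effect alone, 481 in all (4.06%), had an unadjusted p under 0.05 in the cebpd effect and a CEN effect within 0.25 log2 units of 0, and genes with a CEN effect alone, 197 in all (1.66%), the reverse. Another 2 genes, cebpd and cdkn1a, were lower in both knockouts at that p, and 710 were in no class. Because the readouts define the classes, their sizes and members are descriptions, and of the class members akap2, desi1a, ggt1a and cebpd passed the adjusted threshold. The sizes also moved with single libraries. Opposite genes numbered 61 without CEN KO 3 and 235 without cebpd KO 3, genes with a cebpd effect alone 320 without cebpd WT 1 and 895 without cebpd KO 3, and genes with a CEN effect alone 106 without CEN WT 1 and 349 without CEN WT 3.

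Among the opposite genes 103 were lower in cebpd KO and higher in CEN KO. Their median cebpd effect was -0.66, their median CEN effect 0.66 and their median difference -1.37. Transport genes among them were slc9a3.1, a sodium-proton exchanger, slc13a2, a dicarboxylate carrier, and slc7a8a and slc43a1a, amino acid carriers. Others were atp1a3b, a subunit of the sodium pump, and atp2b1b, a plasma membrane calcium pump. Metabolism genes among them were ca5a, a mitochondrial carbonic anhydrase, pcxb, pyruvate carboxylase, and ucp2, a mitochondrial carrier of the uncoupling family. Genes of the solute carrier families, a group singled out after the values were seen, made up 9 of the 103 (8.74%), against 235 of all 11840 genes (1.98%).

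The form shows in 3 of these transport genes. In slc13a2 the cebpd KO libraries had 11.13, 9.84 and 12.8 CPM, against 32.2, 53.1 and 32.4 CPM in cebpd WT, and the CEN KO libraries had 13.6, 14.5 and 26.8 CPM, against 7.63, 7.64 and 14.8 CPM in CEN WT. In slc9a3.1 they had 449, 639 and 732 CPM in cebpd KO, against 917, 1275 and 989 CPM in cebpd WT, and 309, 320.3 and 429 CPM in CEN KO, against 216, 211 and 273 CPM in CEN WT. In atp2b1b they had 14, 29.6 and 28.7 CPM in cebpd KO, against 93.5, 71.6 and 45.8 CPM in cebpd WT, and 15, 8.68 and 24.6 CPM in CEN KO, against 5.38, 4.65 and 7.01 CPM in CEN WT. The knockout and wild-type libraries did not overlap in either experiment for slc9a3.1 and atp2b1b, whereas in slc13a2 CEN KO 1 and 2 lay below CEN WT 3. The differences were -2.67 ± 0.47, -1.40 ± 0.30 and -3.05 ± 0.56 (SE), each with an adjusted p of 0.104 in edgeR. With single libraries left out they ranged from -3.06 to -2.29, from -1.53 to -1.23 and from -3.34 to -2.60 in that order.

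The enzyme that inactivates cortisol, hsd11b2, had the same form. It had 740.2, 586 and 872 CPM in cebpd KO, against 1347, 1389 and 1028 CPM in cebpd WT, and 1297, 1319 and 1821 CPM in CEN KO, against 738, 757 and 1189 CPM in CEN WT. Neither pair of groups overlapped, and its difference was -1.50 ± 0.32 (SE, adjusted p 0.104, edgeR). The inducible chaperone gene hsp70l was also in this class, with effects of -1.48 and 1.01 and a difference of -2.49 ± 0.46. The lipid kinase gene pip5k1bb had a difference of -1.58 ± 0.28, and the pseudouridine synthase gene pus3 one of -1.92 ± 0.37, neither past the threshold (adjusted p 0.104 each, edgeR).

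The mirror class, higher in cebpd KO and lower in CEN KO, held 37 genes with median effects of 0.60 and -0.53. It included vps16, a subunit of the complexes that tether vesicles to lysosomes, hexb, a lysosomal hexosaminidase, jdp2b, a bZIP repressor, nfil3-5, a bZIP repressor of the NFIL3 family, the copper protein ceruloplasmin (cp), complement factor H (cfh) and the endothelial factor erg. In nfil3-5 the libraries had 103, 82.6 and 81.3 CPM in cebpd KO, against 43.8, 68.5 and 51.1 CPM in cebpd WT, and 38.5, 33.8 and 25.0 CPM in CEN KO, against 50.1, 44.0 and 48.3 CPM in CEN WT. For this gene the knockouts were the groups that stood apart, cebpd KO above and CEN KO below all other libraries. The complement gene cfh had the same order, with means of 46.5 ± 3.19 CPM in cebpd KO and 34.6 ± 5.70 CPM in cebpd WT, and 19.4 ± 1.34 CPM in CEN KO and 26.8 ± 4.70 CPM in CEN WT (SD, n = 3 each). The difference was 1.25 ± 0.27 for nfil3-5, 0.89 ± 0.23 for cfh and 0.83 ± 0.15 for vps16 (SE), with adjusted p-values of 0.104, 0.136 and 0.104 in edgeR. Across the 37 genes a wild-type group stood apart more often than a knockout group. The cebpd WT libraries lay below all others in 17 and CEN WT above in 16, against 4.02% and 2.85% of all genes tested. The cebpd KO libraries lay above all others in 5 and CEN KO below in 2, against 0.988% and 2.15%.

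Genes with a cebpd effect alone were 198 lower and 283 higher in cebpd KO. The lower ones included 7 members of the heat shock and protein folding list (ahsa1b, chordc1a, dnajb1a, dnajb9b, dnajc7, hspa4a and hspa5), the amino acid stress genes chac1 and sesn2, and the C/EBP family member cebpg. The endoplasmic reticulum chaperone gene hspa5 had 317, 302 and 391 CPM in cebpd KO, against 585, 676 and 558 CPM in cebpd WT. Its CEN KO libraries had 289, 206 and 173 CPM, against 253, 309 and 207 CPM in CEN WT, so the cebpd groups were apart and the CEN groups overlapped. In the same class nabp1a, which encodes a single-stranded DNA binding protein, had a cebpd effect of -0.82 ± 0.12 (SE, adjusted p 0.0354, edgeR), a CEN effect of -0.00 ± 0.12 and a difference of -0.81 ± 0.17 (adjusted p 0.104).

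The higher ones included 9 neutrophil genes (coro1a, cpa5, cybb, mmp13a, mpx, ncf4, s1pr4, srgn and timp2b). They also included 5 members of the list of lysosomal, cathepsin and cystatin genes (ctsc, ctsh, ctsl.1, glb1 and zgc:56530). In cybb, the catalytic subunit of the phagocyte oxidase, the libraries had 381, 495 and 447 CPM in cebpd KO, against 234, 335 and 279.6 CPM in cebpd WT. They had 433, 382 and 376 CPM in CEN KO, against 473, 423 and 432 CPM in CEN WT. The cebpd WT libraries lay below all others while the remaining 3 groups lay close together. In hrasa, a Ras GTPase, cebpd KO was the group apart, at 44.3, 44.2 and 44.3 CPM against 21.6, 26.2 and 24.4 CPM in cebpd WT, and its CEN KO libraries had 24.5, 26.9 and 30.6 CPM against 28.8, 25.0 and 26.2 CPM in CEN WT. Its cebpd effect of 0.88 ± 0.13 (SE) passed the threshold (adjusted p 0.0312, edgeR), and its difference of 0.84 ± 0.18 did not (adjusted p 0.104).

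Genes with a CEN effect alone were 95 lower and 102 higher in CEN KO. The lower ones were led by sox4b, followed by gas6, a ligand of TAM receptor kinases, renbp, a renin-binding protein, sfrp5, a secreted Wnt inhibitor, and npl, which splits sialic acid. The higher ones included cpt1b, which carries fatty acids into mitochondria, acadvl, the very long chain acyl-CoA dehydrogenase, pora, the electron donor of cytochrome P450 enzymes, and insig1, a brake on sterol synthesis. In cpt1b the CEN KO libraries had 136, 168 and 189 CPM, against 51.6, 55 and 86.1 CPM in CEN WT. Its cebpd KO libraries had 46.1, 55.2 and 62.5 CPM, against 57.5, 60.9 and 37.8 CPM in cebpd WT, so CEN KO lay above all other libraries and the cebpd groups overlapped. The difference was -1.29 ± 0.33 (SE, adjusted p 0.136, edgeR).

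Beside cebpd, 1 gene was lower in both knockouts at an unadjusted p of 0.05 in each and in the difference, namely cdkn1a, the cell cycle inhibitor p21, singled out after its values were seen. It had 8.96, 7.75 and 8.10 CPM in cebpd KO, against 13.7, 11.9 and 8.83 CPM in cebpd WT, and 6.49, 4.92 and 5.52 CPM in CEN KO, against 11.6, 14.5 and 11.4 CPM in CEN WT. The CEN KO libraries were lowest, the cebpd groups overlapped, and the difference of 0.67 ± 0.28 (SE) did not pass the threshold (adjusted p 0.342, edgeR).

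In many of these genes a wild-type group was the one that stood apart. The difference of effects equals the knockout contrast (cebpd KO minus CEN KO) less the wild-type contrast (cebpd WT minus CEN WT). The wild types of the 2 experiments differed in 2961 genes (25%) and the knockouts in 1879 (15.9%) at an adjusted p of 0.05 in edgeR. Over all genes the wild-type contrast was the larger of the pair in size in 54.9%. It was the larger in 66.9% of the 1530 genes, in 107 of the 140 opposite genes (76.4%), in 368 of the 481 genes with a cebpd effect alone (76.5%) and in 112 of the 197 genes with a CEN effect alone (56.9%). Of the 20 genes of lowest p it was the larger in 18, the exceptions being cebpd and rbbp8. All 3 cebpd WT libraries lay above the other 9 in 36 of the 103 genes that were lower in cebpd KO and higher in CEN KO, and all 3 CEN WT libraries lay below the other 9 in 36. Over all genes tested these shares were 3.92% and 2.66%. Of the genes with a cebpd effect alone, cebpd WT lay above all others in 111 of the 198 lower ones (56.1%). It lay below all others in 164 of the 283 higher ones (58.0%, against 4.02% of all genes tested). The cebpd KO libraries lay below all others in 29 of the 198 (14.6%) and above in 32 of the 283 (11.3%), against 1.22% and 0.988% of all genes tested. The classes select for such orders, so the shares are given as descriptions.

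The labels give no family, tank or sequencing run, so in each experiment a level of the wild types that is particular to those libraries and an effect of the knockout set against them cannot be told apart. The number of genes whose knockout and wild-type libraries did not overlap was 1900 in the cebpd experiment (16%) and 2297 in the CEN experiment (19.4%). In 418 genes (3.53%) the groups did not overlap in either experiment, with opposite directions in 233 (1.97%) and the same direction in 185 (1.56%).

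The gene lists were read by their counts and medians. Some lists share members, such as slc9a3.1 in the proximal tubule and ion transport lists and ctsc in the macrophage and lysosomal lists. Their counts are therefore not independent. Over all genes tested the median difference of effects was -0.01, and 12.9% had an unadjusted p under 0.05. Lists of white blood cells and thrombocytes lay on the positive side and lists of tubule, interrenal and chaperone genes on the negative side. In bulk tissue fewer cells of a type and less RNA per cell cannot be told apart.

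**Figure D4:**
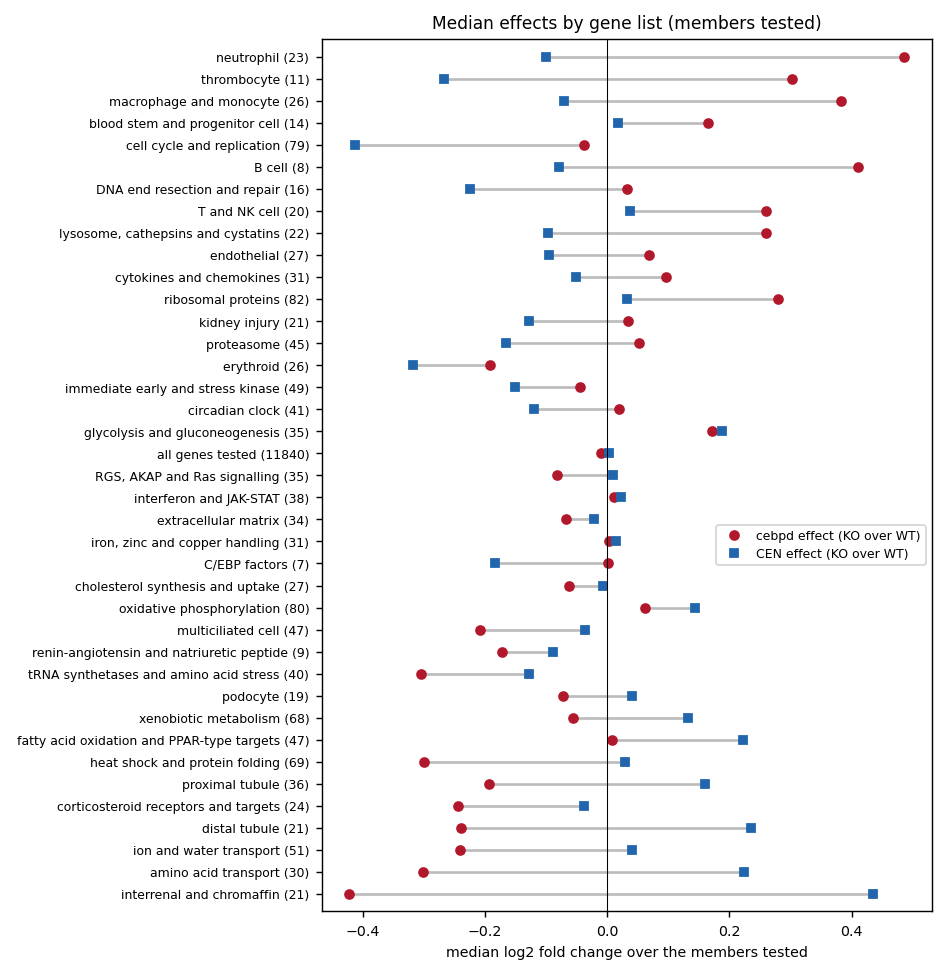
Median log2 cebpd effect (circles) and CEN effect (squares), KO over WT, over the tested members of 38 gene lists and over all genes tested, ordered by the median difference of effects, with the number of members tested in brackets. Neutrophil, thrombocyte and macrophage lists lie at the top with the cebpd effect to the right, and interrenal, amino acid transport and ion transport lists at the bottom with the cebpd effect to the left. The muscle, vitellogenin, egg-coat and acute-phase lists are not drawn. Their median differences were -2.56, -4.02, -0.65 and -0.59 in that order and depended on single libraries.

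Heat shock and protein folding genes were lower in the difference in 48 of 69 tested members, 19 of them and 1 higher at an unadjusted p of 0.05 (29.0% of the list). The median cebpd effect was -0.30 and the median CEN effect 0.03. The range of lower members was 17 to 24 with single libraries left out. Of the constitutive chaperone genes, hspa8 had a difference of -0.18 ± 0.18 and hsp90ab1 of 0.12 ± 0.20 (SE). In mean log2 CPM of the list the 3 cebpd WT libraries stood apart at 5.62 to 5.68, against 5.16 to 5.23 in cebpd KO, while CEN KO had 4.96 to 5.18 and CEN WT 4.96 to 5.08.

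Neutrophil genes were higher in the difference in 20 of 23 tested members, 11 of them and 1 lower at an unadjusted p of 0.05 (52.2%). The median cebpd effect was 0.49 and the median CEN effect -0.10. The chemotactic protein gene lect2l had 565, 552 and 717 CPM in cebpd KO, against 221, 329 and 330.4 CPM in cebpd WT, and 313, 217 and 185 CPM in CEN KO, against 452, 296 and 256 CPM in CEN WT. The cebpd KO libraries lay above all others and the CEN groups overlapped, with a difference of 1.55 ± 0.36 (SE, adjusted p 0.116, edgeR). The lower member was arg2, an arginase, at -1.35 ± 0.36. The summed level of the list was 8408 to 10318 CPM in cebpd KO, 5043 to 6686 CPM in cebpd WT, 5450 to 7173 CPM in CEN KO and 5967 to 8815 CPM in CEN WT. Leaving out single libraries gave 8 to 14 higher members.

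The macrophage, thrombocyte and lysosomal lists had the same sign. In the macrophage list 6 of 26 members were higher and none lower at an unadjusted p of 0.05 (23.1%, against 12.9% of all genes tested). The higher members numbered 2 without cebpd KO 2. The myeloid factor gene spi1b, the lowest p of that list, had means of 291 ± 45.8 CPM in cebpd KO and 191 ± 39.8 CPM in cebpd WT, and 189 ± 33.1 CPM in CEN KO and 213 ± 28.8 CPM in CEN WT (SD, n = 3 each). The macrophage markers mpeg1.1, mfap4 and csf1ra had differences of 0.26 ± 0.25, 0.75 ± 0.48 and 0.63 ± 0.69 (SE). Their unadjusted p-values were 0.31, 0.14 and 0.38 in edgeR. In the thrombocyte list all 11 members had a positive difference, 3 of them at an unadjusted p of 0.05 (27.3%), and 0 without cebpd KO 1. In the lysosomal list, which also holds cystatins, 18 of 22 members had a positive difference and 4 a negative one, with a median of 0.27. At an unadjusted p of 0.05, 8 were higher and none lower (36.4%), and 7 to 10 were higher with single libraries left out.

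Cell cycle and replication genes had their larger median effect on the CEN side. Of 79 members 65 had a positive difference, and the median cebpd effect was -0.04 and the median CEN effect -0.41. At an unadjusted p of 0.05, 7 were higher and none lower (8.86%, below the 12.9% of all genes tested). The DNA topoisomerase gene top2a had 101, 104 and 56.9 CPM in cebpd KO, against 67.6, 39.3 and 79.9 CPM in cebpd WT. It had 79.3, 43.6 and 47.4 CPM in CEN KO, against 111, 94.9 and 74.7 CPM in CEN WT. The groups overlapped in both experiments, and its difference of 1.21 ± 0.44 (SE) had an adjusted p of 0.275 in edgeR. The count depended on single libraries, with 2 members without cebpd KO 1 and 18 without CEN KO 1.

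Tubule lists were lower in the difference, with cebpd effects below 0 and CEN effects above it. Proximal tubule genes had 7 lower and 2 higher of 36 members at an unadjusted p of 0.05, distal tubule genes 4 lower of 21, ion and water transport genes 11 lower and 1 higher of 51, and amino acid transport genes 9 lower and 2 higher of 30 (36.7%). The median differences were -0.30, -0.38, -0.42 and -0.52 in that order. The distal tubule count was 1 without cebpd WT 2, and the amino acid transport count was 5 without it. The proximal tubule phosphate transporter slc20a1a had 1366, 1131 and 1336 CPM in cebpd KO, against 2257, 2667 and 1561 CPM in cebpd WT, and 1694, 1773 and 2248 CPM in CEN KO, against 1582, 1295 and 1442 CPM in CEN WT. The groups did not overlap in either experiment, and its difference was -1.16 ± 0.28 (SE, adjusted p 0.119, edgeR).

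Interrenal genes had a median difference of -0.86, with a cebpd effect of -0.42 and a CEN effect of 0.44, and 5 of 21 members were lower and none higher at an unadjusted p of 0.05 (23.8%). Without CEN KO 1 the lower members numbered 8, and 4 was the fewest with another library left out. The steroidogenic factor nr5a1a had 4.33, 3.71 and 2.79 CPM in cebpd KO, against 8.26, 10.9 and 4.45 CPM in cebpd WT, and 7.66, 9.61 and 8.55 CPM in CEN KO, against 5.54, 5.86 and 6.05 CPM in CEN WT. Both pairs of groups were apart in opposite directions. Its difference was -1.69 ± 0.41, that of the ACTH receptor gene mc2r -1.64 ± 0.43 and that of the steroid hydroxylase gene cyp17a2 -1.69 ± 0.47 (SE), with adjusted p-values of 0.122, 0.145 and 0.161 in edgeR. Corticosteroid receptor and target genes had 7 of 24 members lower and none higher at an unadjusted p of 0.05, cebpd among them, with a median of -0.33.

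The balance of nephron and blood transcripts is built from lists reported here, so it moves with them by construction. It was measured as the mean log2 CPM of both tubule lists less the mean of 3 blood lists, for neutrophils, red cells and B cells. The cebpd KO libraries read -0.25, -0.03 and 0.00563 and the cebpd WT libraries 0.15, 0.77 and -0.17, while the CEN KO libraries read -0.08, 0.61 and 0.48 and the CEN WT libraries -0.30, -0.02 and 0.13. Knockout and wild-type values overlapped in both experiments, and the highest value in each came from cebpd WT 2 and from CEN KO 2. With this balance as a covariate edgeR called 0 genes for the difference, with 1058 at an unadjusted p under 0.05, and the difference was -2.01 for akap2 and -1.41 for desi1a (adjusted p 0.0913 each). Opposite genes then numbered 88. The covariate is built from lists reported here, and the part of tissue composition in these results was not tested further.

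**Figure D5:**
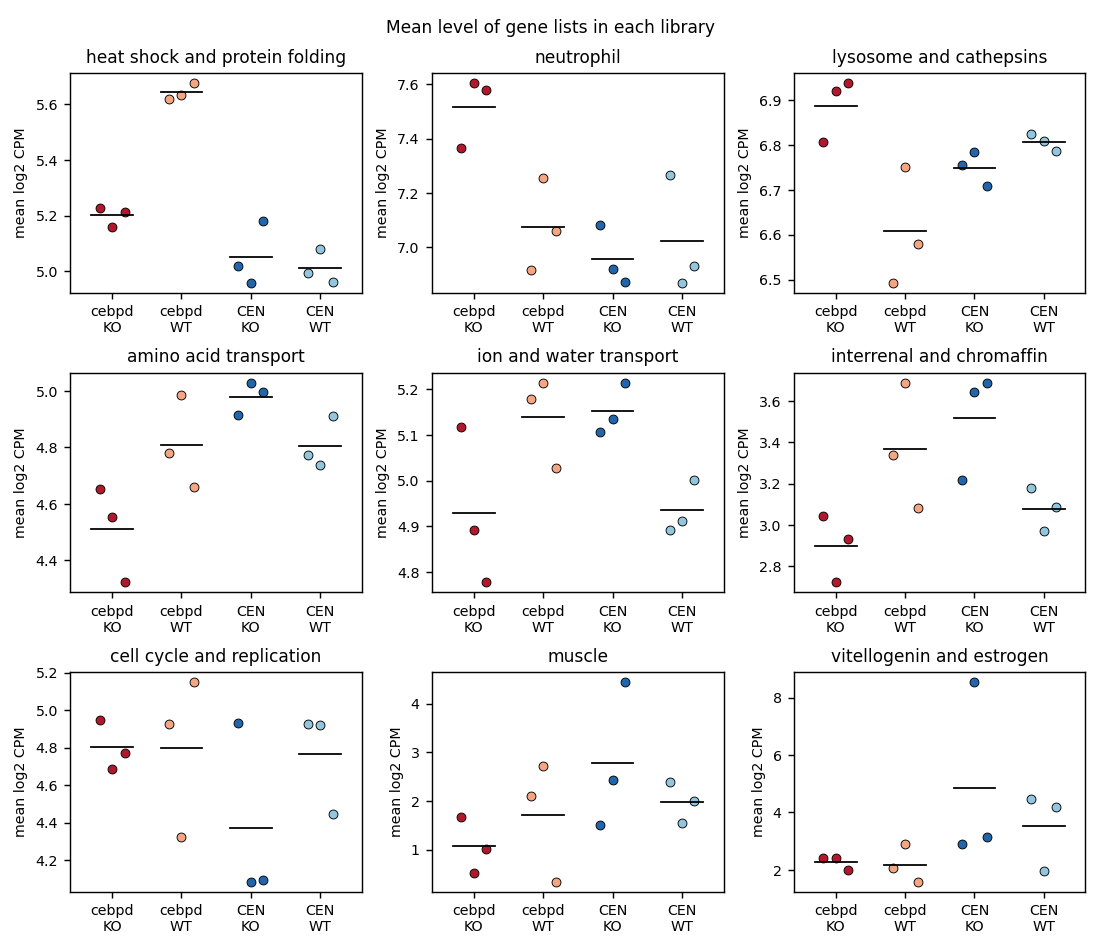
Mean log2 CPM over the tested members of 9 gene lists in each library, by group, with a bar at the group mean. Heat shock genes stand apart in cebpd WT at 5.62 to 5.68, neutrophil genes are highest in cebpd KO, and in the muscle and vitellogenin panels 1 CEN KO library lies far above the others.

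Fatty acid oxidation genes had 8 lower and 2 higher of 47 members at an unadjusted p of 0.05, with a cebpd effect near 0 (median 0.01) and a CEN effect of 0.22. In ucp2 the means were 707 ± 191 CPM in cebpd KO and 1493 ± 153 CPM in cebpd WT. They were 696 ± 205 CPM in CEN KO and 461 ± 113 CPM in CEN WT (SD, n = 3 each). The cebpd WT libraries lay above all others and the CEN groups overlapped (adjusted p of the CEN effect 0.453, edgeR). The knockout contrast of ucp2 (cebpd KO minus CEN KO) was 0.02 and its wild-type contrast (cebpd WT minus CEN WT) 1.70. The count of lower list members was 5 without CEN KO 3. Clock genes had 7 higher and 3 lower members of 41 at an unadjusted p of 0.05, with 12 higher without cebpd KO 3 and 5 lower without cebpd WT 3. The nuclear receptor gene nr1d4b had 2.84, 2.74 and 1.46 CPM in cebpd KO, against 1.41, 1.52 and 1.58 CPM in cebpd WT, and 2.88, 2.32 and 2.18 CPM in CEN KO, against 5.27, 9.2 and 6.5 CPM in CEN WT. CEN WT lay above all others, and the difference was 2.15 ± 0.43, while that of the receptor rorab was -1.15 ± 0.31 (SE, adjusted p 0.104 and 0.152, edgeR).

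In lists of transcripts from tissues other than kidney the difference of effects depended on single libraries. Muscle genes had a median difference of -2.56 with 16 of 37 members lower at an unadjusted p of 0.05 (43.2%). Without CEN KO 3 the median was -0.96 and 1 member was lower. The muscle creatine kinase gene ckmb had 5.93, 2.21 and 3.85 CPM in cebpd KO, against 24.5, 28.8 and 2.5 CPM in cebpd WT, and 8.65, 28.0 and 118 CPM in CEN KO, against 18.6, 9.41 and 15.2 CPM in CEN WT. Vitellogenin and estrogen response genes had a median of -4.02, and 1.14 without CEN KO 2, and egg-coat genes one of -0.65, which was 1.34 without CEN KO 1 and -2.09 without cebpd KO 1. Acute-phase and plasma protein genes, mostly made by the liver, had 5 higher and 5 lower of 42 members and a median of -0.59. Without CEN KO 2 the median was 0.16, with 9 higher and 3 lower members, and without CEN KO 1 it was -0.84, with 12 lower members. These transcripts stand in libraries labelled as male fish, and the labels do not say how the kidneys were separated from nearby tissue. The liver marker fabp10a was present in all 12 libraries, at 48.8 to 335 CPM. It was lower in the cebpd groups, with a knockout contrast of -1.67 and a wild-type contrast of -1.79 (adjusted p 0.00933 and 0.00378, edgeR). Its difference of effects was 0.11 ± 0.47 (SE). The liver marker fgb had 2.79 to 54.6 CPM and a wild-type contrast of 2.70, the other way.

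Other C/EBP genes had smaller differences than cebpd. The value was -0.43 ± 0.15 for cebpg, 0.50 ± 0.22 for ddit3, 0.03 ± 0.30 for cebpa and 0.45 ± 0.34 for cebpb (SE), none past the threshold. In cebpg the cebpd KO libraries had 72.0, 61.8 and 67.7 CPM, against 88.9, 99.4 and 93.6 CPM in cebpd WT, and the CEN KO libraries had 86.9, 84.3 and 89.8 CPM, against 93.7, 85.0 and 91.9 CPM in CEN WT. The cebpd KO libraries lay below all others.

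The number of called genes depended on the tool. The DESeq2 Wald test called 344 of the 11515 genes it gave an adjusted p (2.99%), 109 higher and 235 lower, with all 5 genes among them. By the classes of the edgeR fit, 125 of the 344 were opposite, 76 had a cebpd effect alone and 18 a CEN effect alone. limma-voom called 8 genes, again with all 5 among them.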

How the data were processed

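Kidney RNA of 12 libraries was compared, 3 per group, with groups and replicate numbers taken from the labels. The authors deposited, per library, 1 table of raw counts per gene symbol for 14781 genes with 5 summary lines, which were left out here. Of each table's reads 32.1 to 38.5% fell outside genes and 1.32 to 3.99% were ambiguous. The tools named in the submitters' processing notes are TopHat2 2.1.1, Trim Galore 0.6.4 and HTSeq, with the build danRer10. Their roles, the gene models and the strandedness of counting are not given in these sources, so near-identical paralogs and overlapping or antisense genes are uncertain.

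The analysis used edgeR 4.0.16 under R 4.3.3. Genes were kept by filterByExpr (minimum count 10), libraries scaled by TMM (factors 0.835 to 1.1), and 1 quasi-likelihood fit with a mean per group over all 12 libraries (8 residual degrees of freedom) gave each contrast. The common biological coefficient of variation was 25.3%. Adjusted p-values are Benjamini-Hochberg over the 11840 genes tested, and a standard error (SE) is the log2 value divided by the square root of F. CPM use the TMM factors; levels are not per length and are not compared between genes. No pair of replicates agreed within sampling noise (chi-square per degree of freedom 26.3 to 84.4).

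Named genes were cebpd, rbbp8, all called genes, those of lowest p up to 20 with a group mean of at least 1 CPM, up to 5 per class, and up to 3 per list, passing over clone-type identifiers. The members, 42 gene lists and rules were chosen with earlier results of these data known, so no list was tested; class and list members without values are named to account for a count, and marker genes serve the check of the tissue. Gene order came from a RefSeq table of another assembly, GRCz12tu, matched by symbol for 10460 tested genes and by synonym for 1268, with 112 unmatched.

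Alternatives were DESeq2 1.42.0 (size factors and Wald test), limma-voom (limma 3.58.1) with and without quality weights, scaling that ignores the 20 most abundant genes, a filter of 10 CPM in 3 libraries or none, robust estimation, replicate blocks, a tissue composition covariate, an adjusted p of 0.1, a log2 size of 1, a class limit of 0.5, and each library left out.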

Additional observations from a re-analysis of the deposited data

Results flagged for a closer look

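The test of the difference between the 2 knockout effects passed its threshold in edgeR for 5 genes, each of which had an effect in the cebpd experiment unlike that in the CEN experiment. The log2 difference was -2.18 for akap2, -1.79 for desi1a and -2.32 for ggt1a, in which the effects had opposite directions. It was -3.42 for cebpd, lower in both knockouts, and 4.54 for rbbp8, nearly absent from CEN KO. The adjusted p-values were 0.017, 0.0212, 0.0244, 0.0244 and 0.0244 in the order akap2, desi1a, ggt1a, cebpd and rbbp8.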

How the results depend on the processing

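Scaling by DESeq2's size factors or without the 20 most abundant genes, no filter and a minimum log2 difference of 1 each left 5 called genes, robust estimation gave 6, and a filter of 10 CPM gave 7, without rbbp8, which it removes. More genes passed under other tools: the DESeq2 Wald test called 344 (109 higher, 235 lower), limma-voom 8 (7 lower) and limma-voom with quality weights 487 (155 higher, 332 lower), the last with 388 opposite genes, 831 with a cebpd effect alone and 517 with a CEN effect alone. At an adjusted p of 0.1 edgeR called 8 (2 higher). The composition covariate gave 0 calls (0 higher, 0 lower, 1058 genes at an unadjusted p under 0.05), 88 opposite genes, 319 with a cebpd effect alone and 109 with a CEN effect alone. A class limit of 0.5 gave 320 genes with a CEN effect alone. Leaving out cebpd KO 1 and CEN KO 1 together, chosen after seeing the data, left 1 called gene, rbbp8, and 0 lower. The cause of these changes was not tested.

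With single libraries left out the calls ranged from 0 to 48 (higher 0 to 23, lower 0 to 25), opposite genes from 61 to 235, genes with a cebpd effect alone from 320 to 895 and genes with a CEN effect alone from 106 to 349. There were 0 calls without cebpd KO 1, cebpd WT 2, CEN KO 3, CEN WT 1 or CEN WT 2, with 1058 to 1431 genes at an unadjusted p under 0.05.

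Replicate numbers are shared between groups, and the labels state no shared animal or day behind a number. The deviations of same-numbered libraries correlated at 0.26, -0.02 and 0.34 in the cebpd experiment. In the CEN experiment they correlated at 0.21, 0.00 and 0.14. Libraries of unlike number reached 0.30 in the cebpd experiment and 0.08 in the CEN experiment. With 3 numbers per experiment these values cannot decide whether same-numbered libraries share a day or batch, and the main fit used no block. With the number as a replicate block edgeR called 0 genes (0 higher, 0 lower, 1634 at an unadjusted p under 0.05), and the adjusted p-values of the 5 genes lay between 0.0503 and 0.0557. With the number within each experiment as a replicate block it called 129 (34 higher, 95 lower), with 284 opposite genes, 747 with a cebpd effect alone and 357 with a CEN effect alone.

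Of 3594 values over 151 named genes and these settings 8 changed sign, in genes not past the threshold: blf to -0.13, npr3 to 0.0432 and agt to 0.0212 with the composition covariate, agt to 0.0622 without CEN KO 2, zp3b to 0.39 with quality weights and to 1.94 without CEN KO 1, and zar1 to 0.63 without CEN KO 1 and to 0.0708 without cebpd KO 1 and CEN KO 1. With single libraries left out agt ranged from -1.23 to 0.0622, zp3b from -5.64 to 1.94 and zar1 from -4.30 to 0.63. Another 206 passed the threshold under an alternative only. At 3 libraries a group and a 25.3% coefficient of variation small differences are not detectable at this depth, and genes near 0.19 CPM, such as rbbp8 in CEN KO, rest on a few reads.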

Other observations

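Endothelial genes had 6 higher and 2 lower of 27 members at an unadjusted p of 0.05 in edgeR (29.6%, against 12.9% of all genes tested) and a median difference of effects of 0.27, with 3 higher members without cebpd KO 2. Of 45 proteasome genes, 0 passed that p with all libraries, while 10 were higher without cebpd WT 3 and 2 lower without cebpd KO 3. Their median knockout contrast (cebpd KO minus CEN KO) was 0.70 and their median wild-type contrast (cebpd WT minus CEN WT) 0.52. Cholesterol genes had a knockout contrast of 1.2 and a wild-type contrast of 1.21, with a median difference of effects of -0.06, which lay between -0.19 and 0.04 with single libraries left out. Ribosomal protein genes had a positive difference in 77 of 82 members with a median of 0.25, but of -0.02 without cebpd KO 3, the library of lowest scaling factor, whose summed level of these genes was 258021 CPM. Their only member at an unadjusted p under 0.05 was rpl7l1, on the lower side.

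In cell types of the marrow, T and NK cell genes had a median difference of 0.30. Of 20 members 2 were higher and none lower at an unadjusted p of 0.05 (10%, below the 12.9% of all genes tested). B cell genes had a median of 0.33, with 2 higher and 1 lower of 8. Without cebpd KO 3 the higher members numbered 4 in each of these lists, and without cebpd KO 1 the B cell list had 1. Erythroid genes had 0 of 26 at that p and a median of 0.17, which was -0.14 without cebpd KO 1 and 0.50 without cebpd WT 3.

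Podocyte genes had 3 higher and 1 lower of 19 at an unadjusted p of 0.05 (21.1%), with 0 lower without cebpd KO 1 and 3 without cebpd KO 2. The podocyte factor tcf21, the lowest p of that list, averaged 7.11 ± 1.64 CPM in cebpd KO and 3.01 ± 0.182 CPM in cebpd WT, and 6.11 ± 0.63 CPM in CEN KO and 6.33 ± 1.18 CPM in CEN WT (SD, n = 3 each). The 3 cebpd WT libraries lay below all others, with a difference of 1.29 ± 0.31 (SE, adjusted p 0.119, edgeR).

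Multiciliated cell genes had 3 lower and 1 higher of 47 at an unadjusted p of 0.05 (8.51%, below the 12.9% of all genes), with 1 lower without cebpd KO 2 and 0 higher without cebpd WT 2. The transcription factor gene foxj1b, the lowest p of that list, had 34.2, 33.5 and 39.0 CPM in cebpd KO, against 83.3, 54.7 and 55.7 CPM in cebpd WT. It had 40.0, 46.0 and 56.8 CPM in CEN KO, against 41.8, 55.5 and 39.6 CPM in CEN WT. The cebpd KO libraries lay lowest, and the difference was -0.92 ± 0.28 (SE, adjusted p 0.19, edgeR).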
